A study of Homo sapiens with 3 samples.

Results

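The transmembrane receptors for TGF-beta, activin and BMP ligands were examined in HEK293T cells, a human embryonic kidney line that is easily transfected, after knockdown of Arkadia or of ESRP2. The 10 receptors were picked by name from a deposited gene table of 23284 genes. They were the type II receptors TGFBR2, ACVR2A, ACVR2B and BMPR2, the type I receptors TGFBR1, ACVR1, ACVR1B, BMPR1A and BMPR1B, and the co-receptor TGFBR3. Their 21 RefSeq isoforms were taken from a table of 41138 isoforms. The 3 libraries were from cells given an siRNA against Arkadia (a protein encoded by RNF111), an siRNA against ESRP2, or a negative control siRNA. All cells were reverse transfected with a lipid reagent and harvested 48 h after seeding, and none received TGF-beta. Each group was 1 library of polyadenylated RNA read on an Ion semiconductor sequencer, so there were no replicates and no tests, and each difference is between 2 libraries.

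Receptors of this family work in pairs. A dimeric ligand brings together type II receptors, which are constitutively active kinases, and type I receptors, which the type II receptors phosphorylate. The activated type I receptor then phosphorylates SMAD proteins: TGFBR1 and ACVR1B act on SMAD2 and SMAD3, while ACVR1, BMPR1A and BMPR1B act on SMAD1, SMAD5 and SMAD9. Arkadia is a ubiquitin ligase known for marking SMAD7, SKI and SKIL, which restrain the pathway, for degradation. ESRP2 is an RNA-binding protein known for setting epithelial patterns of exon use.

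RNF111 had 1.15 FPKM in the Arkadia siRNA library and 7.65 FPKM in the ESRP2 siRNA library, against 6.38 FPKM in the control siRNA library. FPKM is the number of fragments scaled to transcript length and library size. ESRP2 had 21.2 FPKM with Arkadia siRNA and 4.27 FPKM with ESRP2 siRNA, against 14.8 FPKM with control siRNA, and the authors' intervals for ESRP2 in the ESRP2 and control siRNA libraries overlapped. From the spacing of low values, the Arkadia siRNA library held about 9.02 M reads and the ESRP2 siRNA library about 12.3 M, against about 11.9 M in the control. Of 9 genes known from HEK293T cells, 8 reached 1 FPKM in at least 1 library and 5 in all 3, with NEFH at most 0.110 FPKM. None of 12 markers of blood, endothelial, liver, muscle or stromal cells reached 1 FPKM in any library. Their summed level was 1.16 FPKM with Arkadia siRNA, 0.590 FPKM with ESRP2 siRNA and 1.65 FPKM with control siRNA, and APOA2 was listed at 0 in each. In a bulk library, fewer cells with a transcript and less of it per cell cannot be told apart.

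All 10 receptors were detected in each library, mostly at low levels. Their median level was 4.63 FPKM with Arkadia siRNA and 5.74 FPKM with ESRP2 siRNA, against 6.03 FPKM with control siRNA. The median of all 11870 genes compared was 10.5, 12.1 and 10.97 FPKM in the same libraries. Genes were compared when their mean over the 3 libraries was at least 1 FPKM, their status was OK and their longest isoform had at least 300 nt. The receptors passed except BMPR1B, whose mean was 0.783 FPKM. ACVR1B was the highest receptor and BMPR1B the lowest in every library, and ACVR2A was second lowest in each. The authors' intervals of neighbours in this order overlapped in every library, the highest and the lowest receptor with their neighbours included, so the order is a description of the point values. Of 45 receptor pairs, 14 had intervals that did not overlap with Arkadia siRNA, 8 with ESRP2 siRNA and 10 with control siRNA.

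**Figure D1:**
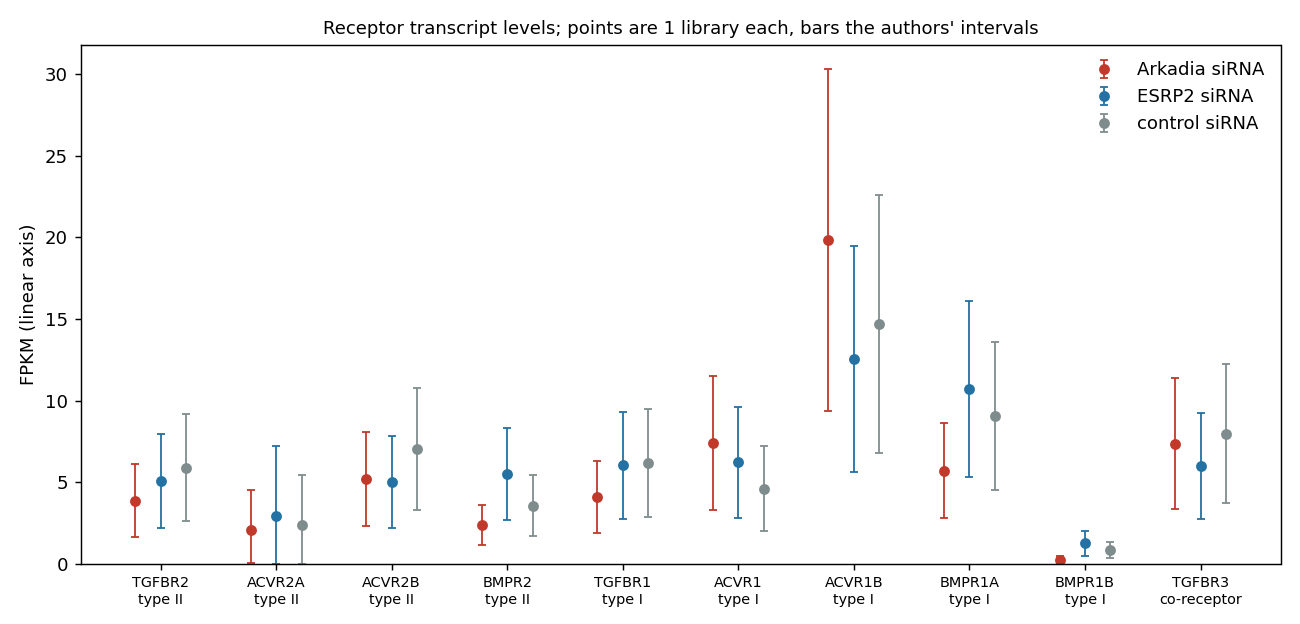
FPKM (linear axis) of each receptor in the Arkadia, ESRP2 and control siRNA libraries, grouped as type II receptors, type I receptors and co-receptor, with the authors' intervals as bars. ACVR1B is at the top with 12.5 to 19.8 FPKM and BMPR1B at the bottom with 0.254 to 1.24 FPKM, and the intervals of the libraries overlap for 9 of the 10 receptors.

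Among the type II receptors, TGFBR2 is the receptor that binds TGF-beta itself (chr3:30647994-30735633, hg19). It had 3.86 FPKM with Arkadia siRNA (authors' interval 1.62 to 6.10) and 5.09 FPKM with ESRP2 siRNA (2.20 to 7.95), against 5.89 FPKM with control siRNA (2.63 to 9.16). The control value was the highest, and all 3 intervals overlapped. The log2 ratio was -0.50 for Arkadia over control siRNA and -0.18 for ESRP2 over control siRNA, where ratios were taken of FPKM + 1 and the words rose and fell are kept for genes past 1.5-fold (0.58 on the log2 scale). TGFBR2 did not pass that size in either.

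BMPR2, the type II receptor that is specific to BMP ligands and is known for its loss in inherited pulmonary arterial hypertension (chr2:203241050-203432474), had the widest range of the type II receptors. Its level was 2.35 FPKM with Arkadia siRNA (1.13 to 3.57) and 5.50 FPKM with ESRP2 siRNA (2.70 to 8.30), against 3.57 FPKM with control siRNA (1.71 to 5.44). The Arkadia siRNA library was lowest, the ESRP2 siRNA library highest and the control between them. With Arkadia siRNA BMPR2 fell relative to ESRP2 siRNA, with a log2 ratio of -0.95, which turned to 0.11 once the trend with GC content described further on was subtracted. Against control siRNA the log2 ratio was -0.45 with Arkadia siRNA and 0.51 with ESRP2 siRNA, neither past 1.5-fold. Without the added 1, the ratios to control siRNA were 0.659 and 1.54.

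ACVR2A and ACVR2B bind activins and also serve BMPs. ACVR2B (chr3:38492518-38534633, a locus it shares with LOC100128640) had 5.18 FPKM with Arkadia siRNA (2.30 to 8.07) and 5.01 FPKM with ESRP2 siRNA (2.22 to 7.82), against 7.04 FPKM with control siRNA (3.29 to 10.8). The knockdown libraries were nearly equal and both were below the control, by log2 ratios of -0.38 and -0.42, within the intervals. ACVR2A had 2.097 FPKM with Arkadia siRNA (0.0320 to 4.50) and 2.94 FPKM with ESRP2 siRNA (0 to 7.20), against 2.38 FPKM with control siRNA (0 to 5.44). Its intervals reached or nearly reached 0, which makes it the least certain of the 9 receptors compared. Its locus in the authors' table (chr2:148602570-149271044) also spans ORC4 and MBD5. ORC4, a subunit of the origin recognition complex, had 5.07 FPKM with Arkadia siRNA and 12.1 FPKM with ESRP2 siRNA, against 8.48 FPKM with control siRNA.

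Among the type I receptors, ACVR1B, the activin receptor also called ALK4 (chr12:52345451-52390863), was the most abundant. It had 19.8 FPKM with Arkadia siRNA (9.37 to 30.3) and 12.5 FPKM with ESRP2 siRNA (5.60 to 19.5), against 14.7 FPKM with control siRNA (6.81 to 22.6). ACVR1B was highest in the Arkadia siRNA library and rose there relative to ESRP2 siRNA, with a log2 ratio of 0.62, or 0.37 after the same subtraction. Against control siRNA its log2 ratio was 0.41 with Arkadia siRNA and -0.21 with ESRP2 siRNA.

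BMPR1A, the BMP receptor also called ALK3 (chr10:88516396-88684945), ran the other way. It had 5.71 FPKM with Arkadia siRNA (2.78 to 8.63) and 10.7 FPKM with ESRP2 siRNA (5.31 to 16.1), against 9.08 FPKM with control siRNA (4.52 to 13.6). The Arkadia siRNA library was the lowest of the 3, although all intervals overlapped. BMPR1A fell with Arkadia siRNA against control siRNA, with a log2 ratio of -0.59 just past the size used, and against ESRP2 siRNA, with a log2 ratio of -0.80. Its log2 ratio for ESRP2 over control siRNA was 0.22. The fall against control siRNA no longer passed 1.5-fold with median-of-ratios scaling or after subtraction of the trends with GC content or transcript length. The ratio to ESRP2 siRNA turned to 0.070 with GC subtraction and was -0.52 with length subtraction, under 1.5-fold. BMPR1A has annotated processed pseudogenes, and how the authors' counting shared reads with them is not given in the sources used here, so its level carries that uncertainty.

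BMPR1B, the related receptor ALK6 that is known from cartilage and limb development (chr4:95679128-96079601), was low throughout. It had 0.254 FPKM with Arkadia siRNA (0.0635 to 0.447) and 1.24 FPKM with ESRP2 siRNA (0.501 to 1.98), against 0.851 FPKM with control siRNA (0.344 to 1.36). These values correspond to roughly 12.5, 85.0 and 56.5 reads. BMPR1B was the receptor whose authors' intervals did not overlap between Arkadia and ESRP2 siRNA, while either knockdown overlapped the control. Since its mean was under 1 FPKM it was not among the genes compared. Its log2 ratios were -0.84 for Arkadia over ESRP2 siRNA, -0.56 for Arkadia over control siRNA and 0.28 for ESRP2 over control siRNA.

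TGFBR1, the TGF-beta type I receptor ALK5 (chr9:101867412-101916473), had 4.08 FPKM with Arkadia siRNA (1.89 to 6.27) and 6.05 FPKM with ESRP2 siRNA (2.77 to 9.33), against 6.16 FPKM with control siRNA (2.86 to 9.47). The ESRP2 and control siRNA libraries were nearly equal and the Arkadia siRNA library was lower, with a log2 ratio to control siRNA of -0.50 that did not pass 1.5-fold. ACVR1, the receptor ALK2 that carries activating mutations in fibrodysplasia ossificans progressiva (chr2:158592958-158732374), was the receptor for which the control was lowest. It had 7.40 FPKM with Arkadia siRNA (3.28 to 11.5) and 6.21 FPKM with ESRP2 siRNA (2.80 to 9.64), against 4.61 FPKM with control siRNA (1.99 to 7.24). Its log2 ratio for Arkadia over control siRNA, 0.583, fell just short of the 0.585 required, and its ratio without the added 1 was 1.61.

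TGFBR3, or betaglycan, has no kinase and presents ligand, TGF-beta2 in particular, to the signalling receptors (chr1:92145900-92371559). It had 7.37 FPKM with Arkadia siRNA (3.33 to 11.4) and 5.99 FPKM with ESRP2 siRNA (2.73 to 9.24), against 7.98 FPKM with control siRNA (3.70 to 12.3). The libraries differed little at the level of the whole gene, with log2 ratios to control siRNA of -0.10 for Arkadia and -0.36 for ESRP2 siRNA. Its isoforms differed more, as described further on.

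Grouped by name, the BMP receptors BMPR1A, BMPR1B and BMPR2 summed to 8.32 FPKM with Arkadia siRNA and 17.5 FPKM with ESRP2 siRNA, against 13.5 FPKM with control siRNA. All 3 were lowest with Arkadia siRNA and highest with ESRP2 siRNA, as was ACVR2A. The activin-type receptors ACVR1, ACVR1B, ACVR2A and ACVR2B summed to 34.5 FPKM with Arkadia siRNA and 26.7 FPKM with ESRP2 siRNA, against 28.7 FPKM with control siRNA. The TGF-beta receptors TGFBR1, TGFBR2 and TGFBR3 summed to 15.3 FPKM with Arkadia siRNA and 17.1 FPKM with ESRP2 siRNA, against 20.0 FPKM with control siRNA. The sum over all 10 receptors moved less, at 58.1, 61.3 and 62.3 FPKM in the same order of libraries.

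By role, the type II receptors summed to 13.5 FPKM with Arkadia siRNA and 18.5 FPKM with ESRP2 siRNA, against 18.9 FPKM with control siRNA. The type I receptors summed to 37.3 FPKM with Arkadia siRNA and 36.7 FPKM with ESRP2 siRNA, against 35.4 FPKM with control siRNA, with ACVR1B as the highest of them in each library. The Arkadia siRNA library held the lowest value for 6 receptors (TGFBR2, ACVR2A, BMPR2, TGFBR1, BMPR1A and BMPR1B), the ESRP2 siRNA library for 3 and the control siRNA library for 1. The ESRP2 siRNA library held the highest value for 4 receptors (ACVR2A, BMPR2, BMPR1A and BMPR1B), the control siRNA library for 4 and the Arkadia siRNA library for 2. Shares of all genes lowest or highest in each library were not computed, so these counts are not set against all genes.

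Read against all genes, few receptors passed 1.5-fold. With Arkadia siRNA against control siRNA, 0 of the 9 receptors compared rose, where 9.81% of all genes compared rose, and 1 fell (BMPR1A), where 11.8% of all genes fell. With ESRP2 siRNA against control siRNA, 0 rose and 0 fell, against 19.9% and 11.4% of all genes. Between Arkadia and ESRP2 siRNA, 1 was higher with Arkadia siRNA (ACVR1B, against 21.2% of all genes) and 2 were lower (BMPR2 and BMPR1A, against 30.8% of all genes). The authors' intervals did not overlap for 0 of the 9 receptors in any of the comparisons, where 0.438% of all genes for Arkadia over control siRNA, 1.28% for ESRP2 over control siRNA and 6.36% for Arkadia over ESRP2 siRNA were apart. By FPKM + 1 and by intervals, these shares of receptors are close to or below those of all genes. With linear ratios, in place of FPKM + 1, ACVR1 was higher (13% of all genes) for Arkadia over control siRNA. In that comparison 4 of the 9 receptors, TGFBR2, BMPR2, TGFBR1 and BMPR1A, were lower, a larger share than the 16.3% of all genes. On that scale BMPR2 was higher (23.8%) and 0 receptors were lower (15.2%) for ESRP2 over control siRNA, while 1 was higher (24%) and 2 were lower (34.2%) for Arkadia over ESRP2 siRNA. The median log2 ratio of the receptors was -0.38 for Arkadia over control siRNA (-0.02 for all genes), -0.02 for ESRP2 over control siRNA (0.12 for all genes) and -0.32 for Arkadia over ESRP2 siRNA (-0.14 for all genes). Each library enters 2 of the 3 comparisons, so their values are not independent.

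**Figure D2:**
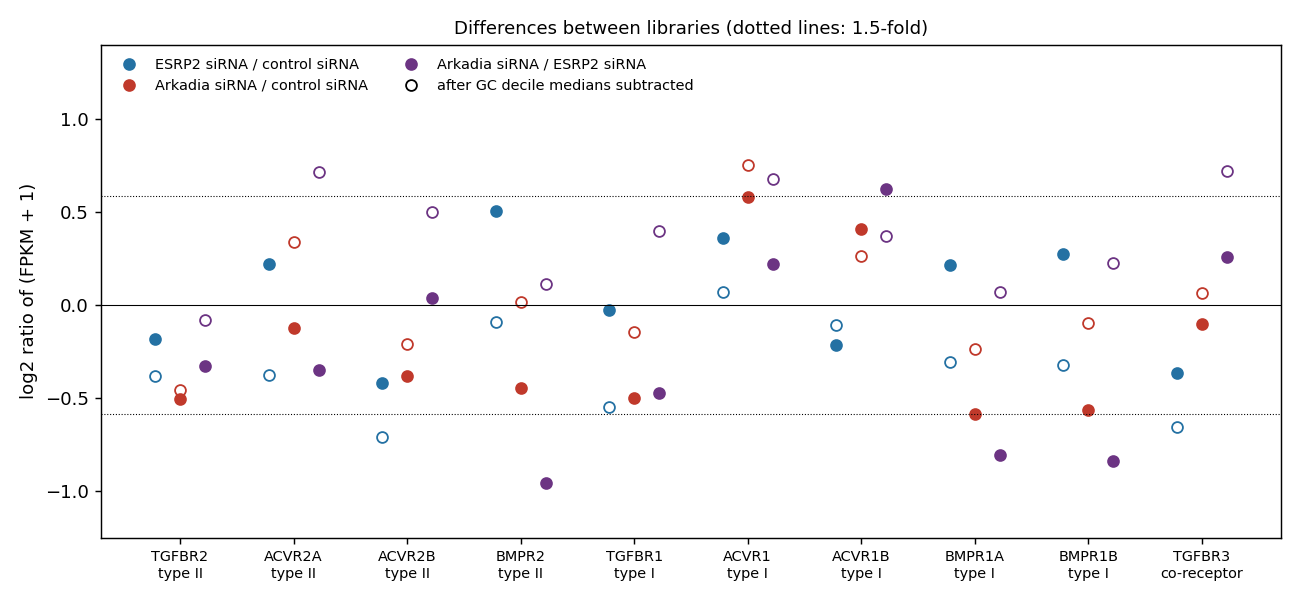
Log2 ratio of FPKM + 1 for each receptor in the 3 comparisons (filled points) and after the median of its GC decile was subtracted (open points), with dotted lines at 1.5-fold. Among the filled points for Arkadia over ESRP2 siRNA, ACVR1B at 0.62 lies above that size and BMPR2 at -0.95 and BMPR1A at -0.80 lie below it, as does BMPR1B at -0.84, which was too low to be compared.

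The ratios of all genes followed the GC content of the transcript, and the receptors share a low one. In the decile of genes with the lowest GC content (median 37.3%) the median log2 ratio was -0.47 for Arkadia over control siRNA, 0.60 for ESRP2 over control siRNA and -1.07 for Arkadia over ESRP2 siRNA. In the decile with the highest GC content (64.4%) it was 0.34, -0.49 and 0.80. The median GC content of the receptors was 42.2%, against 49.0% for all genes, and 9 of the 10 receptors were below the median of all genes, with ACVR1B at 52.9% above it. BMPR2 (37.6%), BMPR1B (38.4%) and BMPR1A (40.6%) lay in the 2 lowest deciles, together with ACVR2A (38.7%) and TGFBR1 (39.0%). All 10 receptors were also longer than the median gene, with a median of 5402 nt.

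When the median of its GC decile was subtracted from each gene, the BMP receptors no longer stood out. The log2 ratio of Arkadia over ESRP2 siRNA became 0.11 for BMPR2, 0.070 for BMPR1A and 0.23 for BMPR1B, so each changed sign. For Arkadia over control siRNA it became 0.02 for BMPR2, -0.23 for BMPR1A and -0.10 for BMPR1B, all under 1.5-fold. ACVR1, in contrast, moved to 0.75 for Arkadia over control siRNA and 0.68 for Arkadia over ESRP2 siRNA, and so passed 1.5-fold in both. ACVR1B dropped to 0.37 for Arkadia over ESRP2 siRNA, under 1.5-fold. ACVR2A and TGFBR3 each reached 0.72 for Arkadia over ESRP2 siRNA. ACVR2B and TGFBR3 reached -0.71 and -0.65 for ESRP2 over control siRNA. TGFBR2 kept -0.45 for Arkadia over control siRNA, the value furthest below its decile in that comparison. After subtraction 9 of the 10 receptors were below 0 for ESRP2 over control siRNA, 5 were below 0 for Arkadia over control siRNA, and 9 were above 0 for Arkadia over ESRP2 siRNA. These counts include BMPR1B, which was too low to be compared. With length subtraction in its place, 5 receptors were below 0 for ESRP2 over control siRNA and 6 for Arkadia over control siRNA. On that setting 5 were above 0 for Arkadia over ESRP2 siRNA. Shares of all genes after subtraction were not computed, so these counts and the calls above are not set against all genes. The part of GC content in the receptor levels was not tested.

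**Figure D3:**
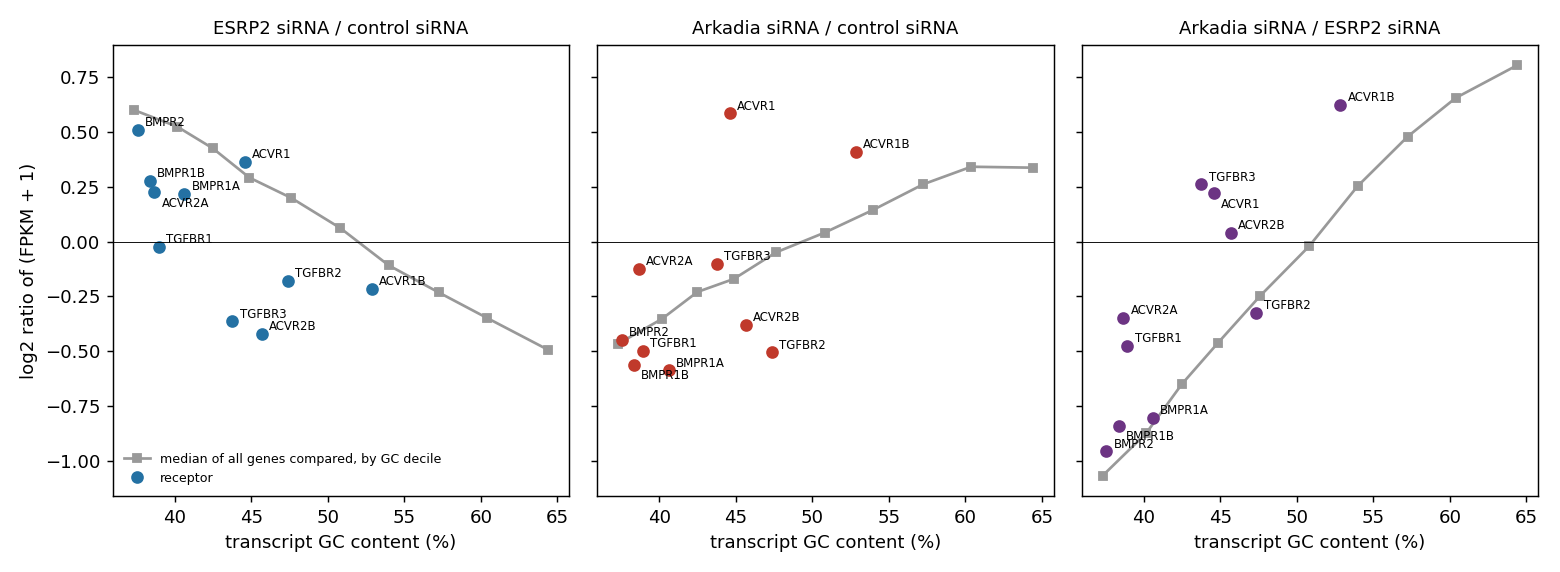
Log2 ratio of FPKM + 1 of each receptor (coloured points) against the GC content of its transcript, with the median of all genes compared in each GC decile (grey line), for the 3 comparisons. BMPR2, BMPR1A and BMPR1B lie near the grey line for Arkadia over ESRP2 siRNA, and ACVR1 lies above it in both comparisons with Arkadia siRNA on top.

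BMPR1A, BMPR1B and BMPR2 were lowest and highest in the same libraries, as was ACVR2A. A promoter window of each BMP receptor is shown, from 250 bases before to 50 bases after a RefSeq transcript start. The windows are on the plus strand of GRCh38.p14 (chr10:86755513-86755812, chr4:94757705-94758004 and chr2:202376077-202376376). Capitals mark CAGAC, the SMAD-binding element, which reads GTCTG on the other strand, and GGCGCC, a GC-rich element known from BMP-responsive enhancers, which is its own reverse complement; a GGCGCC and a CAGAC can share 1 base.
BMPR1A: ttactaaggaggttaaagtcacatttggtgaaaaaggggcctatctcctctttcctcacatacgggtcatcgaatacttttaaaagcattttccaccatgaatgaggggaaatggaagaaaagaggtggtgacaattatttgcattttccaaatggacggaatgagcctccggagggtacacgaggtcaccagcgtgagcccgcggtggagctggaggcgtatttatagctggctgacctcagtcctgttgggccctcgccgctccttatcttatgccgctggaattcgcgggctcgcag
BMPR1B: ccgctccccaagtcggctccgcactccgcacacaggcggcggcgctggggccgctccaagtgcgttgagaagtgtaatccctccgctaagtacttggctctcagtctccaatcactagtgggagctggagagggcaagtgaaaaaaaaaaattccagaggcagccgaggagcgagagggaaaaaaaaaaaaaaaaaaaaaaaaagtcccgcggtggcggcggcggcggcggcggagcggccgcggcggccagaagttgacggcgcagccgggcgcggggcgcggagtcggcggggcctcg
BMPR2: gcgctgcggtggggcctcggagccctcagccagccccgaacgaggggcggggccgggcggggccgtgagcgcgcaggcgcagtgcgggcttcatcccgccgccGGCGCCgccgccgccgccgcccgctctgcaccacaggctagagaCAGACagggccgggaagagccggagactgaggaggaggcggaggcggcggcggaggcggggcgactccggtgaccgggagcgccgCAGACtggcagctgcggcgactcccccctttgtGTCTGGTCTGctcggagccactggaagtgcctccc
The windows are unlike each other in composition. The BMPR1A window had a GC content of 50.3% with 15 CpG sites, the BMPR1B window 63.3% with 34 and the BMPR2 window 76.7% with 38. CAGAC or its complement was found in 45.3% of 35116 RefSeq promoter windows and in 10 of the 23 windows of the receptors. Those windows belonged to 6 receptors (ACVR1, ACVR1B, ACVR2A, BMPR1B, BMPR2 and TGFBR1). A BMPR1B window that is not shown (chr4:94995590-94995889) had 3 such matches. GGCGCC was found in 19.2% of all windows and in 4 of the 23 receptor windows, which belonged to ACVR1, ACVR1B, BMPR2 and TGFBR1. No match says only that these letters are not in the window, and a match is no evidence of binding. The starts of the BMPR1A and BMPR2 windows were not those of the GENCODE 29 transcript with the deposited accession.

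Of the 10 receptors, 6 had more than 1 isoform in the authors' table, and 4 had a single isoform (ACVR2A NM_001616, ACVR2B NM_001106, BMPR1A NM_004329 and BMPR2 NM_001204). A usage change is the summed absolute difference of isoform shares divided by 2, and 0.25 was the size used for genes with a summed level of at least 5 FPKM in each library. ACVR1B and TGFBR3 qualified. With at least 1 FPKM in each library 5 receptors qualified and the same ones passed 0.25, where 22.8% of all genes passed for Arkadia over control siRNA, 24.5% for ESRP2 over control siRNA and 31.1% for Arkadia over ESRP2 siRNA.

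ACVR1B has isoforms from different starts. NM_004302 and NM_020328 share the first start and NM_020327 begins downstream. NM_004302 had 3.89 FPKM with Arkadia siRNA (0 to 8.59) and 3.19 FPKM with ESRP2 siRNA (0.135 to 6.48), against 0.00157 FPKM with control siRNA. The isoforms of the first start made up 22.1% of the ACVR1B level with Arkadia siRNA and 25.4% with ESRP2 siRNA, against 2.35% with control siRNA. NM_020327 made up the rest, 77.9% and 74.6%, against 97.6%. The usage change was 0.197 for Arkadia over control siRNA and 0.254 for ESRP2 over control siRNA, where 20% of all genes with enough signal passed 0.25. The control value of NM_004302 lay outside its own interval, which the authors list as 0 to 0, and the isoform intervals of the knockdown libraries reached to or near 0. The promoter windows at both starts are shown, since the listed shares of the starts differed between libraries. Whether the use of the starts changed was not tested. The windows are on the plus strand of GRCh38.p14, chr12:51951449-51951748 for the first start and chr12:51953134-51953433 for that of NM_020327. Capitals mark CAGAC or GTCTG and GGCGCC.
ACVR1B first start: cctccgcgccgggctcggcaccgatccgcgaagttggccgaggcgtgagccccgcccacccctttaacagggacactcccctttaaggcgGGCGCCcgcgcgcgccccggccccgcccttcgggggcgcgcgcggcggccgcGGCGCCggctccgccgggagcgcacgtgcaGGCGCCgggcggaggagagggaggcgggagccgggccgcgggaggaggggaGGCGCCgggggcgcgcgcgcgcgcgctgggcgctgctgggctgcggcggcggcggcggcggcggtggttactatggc
ACVR1B NM_020327 start: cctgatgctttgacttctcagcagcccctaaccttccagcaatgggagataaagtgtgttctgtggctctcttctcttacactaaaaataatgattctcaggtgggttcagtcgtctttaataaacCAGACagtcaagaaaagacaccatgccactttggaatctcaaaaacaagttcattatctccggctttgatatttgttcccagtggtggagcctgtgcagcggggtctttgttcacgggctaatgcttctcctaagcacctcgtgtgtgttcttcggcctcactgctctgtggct
The window of the first start had a GC content of 82.3% with 56 CpG sites and 4 copies of GGCGCC. The NM_020327 window had a GC content of 46.7% with 6 CpG sites and 1 copy of CAGAC.

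TGFBR3 also has isoforms from different starts, and the shares of its isoforms differed between libraries. NM_003243 had 5.06 FPKM with Arkadia siRNA (1.82 to 8.31) and 2.68 FPKM with ESRP2 siRNA (0.576 to 4.79), against 3.12 FPKM with control siRNA (0.495 to 5.76). NM_001195684, from the other start, had 2.31 FPKM with Arkadia siRNA (0.179 to 4.48) and 3.31 FPKM with ESRP2 siRNA (0.963 to 5.65), against 4.10 FPKM with control siRNA (1.10 to 7.11). NM_003243 thus led in the Arkadia siRNA library with 68.7% of the gene, while it held 44.7% with ESRP2 siRNA and 39.1% with control siRNA. The non-coding NR_036634, from the same start as NM_003243, was listed at 0 in both knockdown libraries and made up 9.50% with control siRNA. That start as a whole held 68.7% with Arkadia siRNA and 44.8% with ESRP2 siRNA, against 48.6% with control siRNA. Its share thus differed from control siRNA by 20.0 percentage points with Arkadia siRNA and by -3.88 with ESRP2 siRNA. Over the isoforms, the usage change was 0.296 for Arkadia over control siRNA, where 17.1% of all genes passed 0.25. It was 0.239 for Arkadia over ESRP2 siRNA, where 26.3% passed. The isoform intervals overlapped in each pair of libraries.

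**Figure D4:**
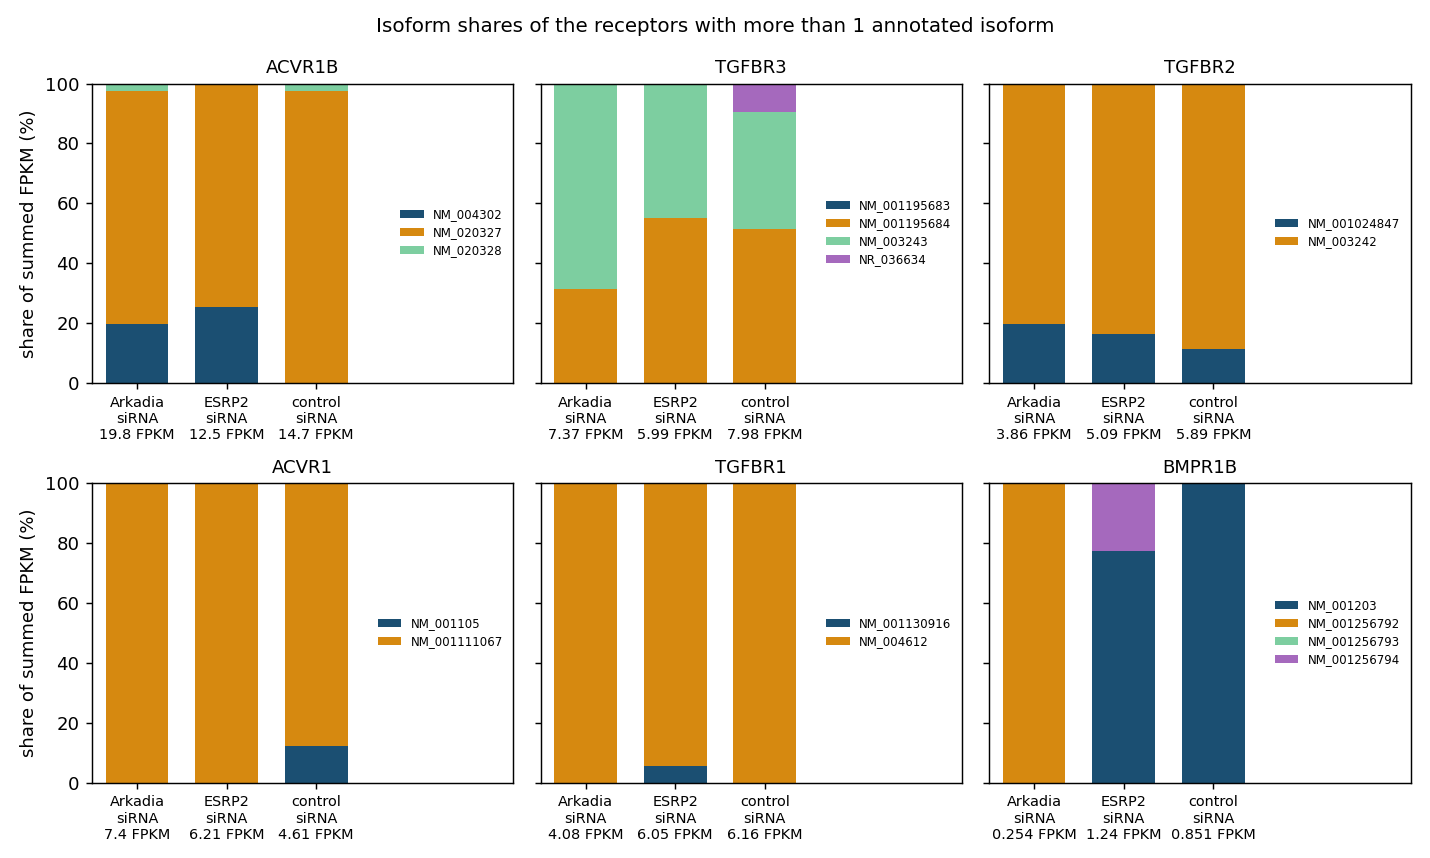
Share of each isoform (percent of the summed FPKM of the gene) in the Arkadia, ESRP2 and control siRNA libraries for the 6 receptors with more than 1 isoform, with the gene's FPKM under each bar. The share of ACVR1B NM_004302 is 19.6% and 25.4% in the knockdown libraries and 0.0107% in the control, and BMPR1B shows a different leading isoform with Arkadia siRNA at a level of 0.254 FPKM.

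TGFBR2 is of interest because its isoforms differ by an alternative exon and ESRP2 regulates such exons in epithelia. NM_001024847 carries an additional exon of 75 bases that adds 25 codons to the extracellular part of the receptor. The exon is shown in capitals with 15 bases of the neighbouring exons on each side (chr3:30623199-30623273 on the plus strand of GRCh38, from the GENCODE 29 transcript).
TGFBR2 alternative exon: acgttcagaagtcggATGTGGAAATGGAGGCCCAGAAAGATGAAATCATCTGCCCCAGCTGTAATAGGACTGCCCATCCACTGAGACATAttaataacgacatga
The exon-containing isoform had 0.757 FPKM with Arkadia siRNA (0 to 1.79) and 0.826 FPKM with ESRP2 siRNA (0 to 2.01), against 0.662 FPKM with control siRNA (0 to 1.84). Its share was 19.6% with Arkadia siRNA and 16.2% with ESRP2 siRNA, against 11.2% with control siRNA. With about 32.1, 48.0 and 37.1 reads assigned to it and intervals that reach 0, no difference in inclusion was detectable at this depth. The usage change for ESRP2 over control siRNA was 0.0502. The median was 0.105 over all genes with several isoforms and a summed level of at least 1 FPKM in each library. For Arkadia over control siRNA the usage change was 0.0839, where that median was 0.103.

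The remaining receptors with several isoforms were dominated by 1 of them. NM_001111067 of ACVR1 made up all of it with Arkadia siRNA and nearly all with ESRP2 siRNA, against 87.8% with control siRNA, where NM_001105 had 0.563 FPKM (0 to 1.45). TGFBR1 was almost all NM_004612, with NM_001130916 at 5.57% with ESRP2 siRNA and listed at 0 with Arkadia and control siRNA. BMPR1B was assigned to NM_001256792 with Arkadia siRNA and mainly to NM_001203 with ESRP2 siRNA (77.5%, the rest being NM_001256794 with 22.5%) and to NM_001203 with control siRNA, where the other isoforms were at or near 0. With about 12.5 reads for BMPR1B in the Arkadia siRNA library, that assignment rests on very little signal.

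The partners of the receptors were read from lists chosen for their role. ACVRL1, ACVR1C and AMHR2, the other receptors of the family, were all under 1 FPKM in each library and none was compared. Over all 105 listed genes other than the 10 receptors, 66 were compared. With Arkadia siRNA against control siRNA 6 rose and 9 fell, where 9.81% and 11.8% of all genes did. With ESRP2 siRNA against control siRNA 8 rose and 12 fell, where 19.9% and 11.4% of all genes did. With Arkadia siRNA against ESRP2 siRNA 14 were higher and 12 lower, where 21.2% and 30.8% of all genes were. RNF111, the target of the Arkadia siRNA, is among the 9 that fell and among these 12. The counts for single lists below are to be read against the same shares of all genes. Their median log2 ratios were 0.00, 0.06 and -0.07, close to those of all genes. For named genes that no longer passed 1.5-fold after subtraction of the GC decile medians, the subtracted log2 ratio is given.

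Of the co-receptors and decoys other than TGFBR3, 7 were compared. With Arkadia siRNA 1 rose and 0 fell against control siRNA, with ESRP2 siRNA 1 rose and 1 fell, and 2 were higher and 0 lower with Arkadia than with ESRP2 siRNA. NRP1, a co-receptor for TGF-beta and VEGF, had 6.54 FPKM with Arkadia siRNA and 6.22 FPKM with ESRP2 siRNA, against 3.50 FPKM with control siRNA, and so rose in both. The rise with ESRP2 siRNA no longer passed 1.5-fold with median-of-ratios or upper-quartile scaling, or with GC (0.39) or length (0.48) subtraction. RGMA, a BMP co-receptor, had 16.1 FPKM with Arkadia siRNA and 9.12 FPKM with ESRP2 siRNA, against 15.1 FPKM with control siRNA. The log2 ratio of RGMA with ESRP2 siRNA was -0.67, past 1.5-fold, and -0.17 with GC subtraction, no longer past it. For Arkadia over ESRP2 siRNA the log2 ratio of RGMA was 0.76, and -0.046 with GC subtraction. LRP1, an endocytic receptor that binds TGF-beta, had 3.07 FPKM with Arkadia siRNA and 0.999 FPKM with ESRP2 siRNA, against 1.91 FPKM with control siRNA, and passed 1.5-fold between the knockdowns, a call that was lost with GC subtraction (0.37).

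All 19 regulators that bind or modify the receptors were compared. With Arkadia siRNA 2 rose and 4 fell against control siRNA, with ESRP2 siRNA 3 rose and 2 fell, and 2 were higher and 5 lower with Arkadia than with ESRP2 siRNA. With GC subtraction the 4 that fell with Arkadia siRNA became 1, the 3 that rose with ESRP2 siRNA became 1, and the 5 lower between the knockdowns became 2. USP15, a deubiquitinase of the TGF-beta receptor complex, had 5.21 FPKM with Arkadia siRNA and 23.3 FPKM with ESRP2 siRNA, against 10.2 FPKM with control siRNA. It fell in the Arkadia siRNA library (-0.86) and rose in the ESRP2 siRNA library (1.12), and neither passed 1.5-fold with GC subtraction (-0.39 and 0.52). For Arkadia over ESRP2 siRNA its log2 ratio was -1.97, and -0.90 with GC subtraction, still past 1.5-fold, while the intervals overlapped. USP11, another deubiquitinase of TGFBR1, had 77.7 FPKM with Arkadia siRNA and 26.6 FPKM with ESRP2 siRNA, against 65.6 FPKM with control siRNA. It fell with ESRP2 siRNA against control siRNA (-1.27), where the intervals overlapped. The intervals of the Arkadia and ESRP2 siRNA libraries did not overlap. FKBP1A, which binds the type I receptors and keeps them inactive, had 177 FPKM with Arkadia siRNA and 426 FPKM with ESRP2 siRNA, against 278 FPKM with control siRNA. Its rise with ESRP2 siRNA (0.61) no longer passed 1.5-fold with median-of-ratios or upper-quartile scaling, or with GC (0.41) or length subtraction. FKBP1A fell with Arkadia siRNA against control siRNA (-0.65, and -0.60 with GC subtraction). It was lower with Arkadia than with ESRP2 siRNA (-1.27, and -1.02 with GC subtraction), and its intervals overlapped in each pair of libraries.

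Downstream, all 8 SMADs were compared. None rose or fell with Arkadia siRNA against control siRNA, 1 rose and 1 fell with ESRP2 siRNA, and 1 was higher and 2 were lower with Arkadia than with ESRP2 siRNA. SMAD6, an inhibitor of BMP receptor signalling, had 7.44 FPKM with Arkadia siRNA (2.84 to 12.04) and 1.35 FPKM with ESRP2 siRNA (0.398 to 2.32), against 5.99 FPKM with control siRNA (2.11 to 9.87). It fell with ESRP2 siRNA against control siRNA by 1.57 on the log2 scale, where the intervals overlapped. The intervals of the Arkadia and ESRP2 siRNA libraries did not overlap. SMAD9, a substrate of the BMP receptors, had 2.16 FPKM with Arkadia siRNA and 5.47 FPKM with ESRP2 siRNA, against 3.29 FPKM with control siRNA. Its rise with ESRP2 siRNA (0.59) no longer passed 1.5-fold with either rescaling or with GC (0.17) or length subtraction, and its lower level with Arkadia than with ESRP2 siRNA (-1.04) did not with GC subtraction (-0.39). Of the corepressors SKI, SKIL, TGIF1 and TGIF2 together with RNF111, 2 of 5 fell with Arkadia siRNA, RNF111 itself and SKI. SKI had 7.51 FPKM with Arkadia siRNA and 12.4 FPKM with ESRP2 siRNA, against 19.6 FPKM with control siRNA, so it fell in both libraries. With GC subtraction the fall of SKI with ESRP2 siRNA was -0.27, no longer past 1.5-fold, and that with Arkadia siRNA was -1.61. SKIL had 1.20 FPKM with Arkadia siRNA and 4.299 FPKM with ESRP2 siRNA, against 2.06 FPKM with control siRNA, and rose with ESRP2 siRNA. The rise of SKIL no longer passed 1.5-fold with GC subtraction (0.19), nor did its lower level with Arkadia than with ESRP2 siRNA (-0.20).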

How the data were processed

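Polyadenylated RNA of HEK293T cells was measured in 3 libraries, 1 each with Arkadia, ESRP2 and negative control siRNA. The authors ran Cuffdiff, Cufflinks 2.1.1, TopHat2 2.0.10 and Bowtie2 2.1.0 on hg19 reference sequence, per the submitters' processing notes. Not given in the sources used here were the order of these steps, the Cuffdiff version, the scaling between libraries, the dispersion model, the use of strand and the handling of reads with several matches. The deposited gene and isoform tables hold FPKM, both bounds of an interval and a status per library, per the file headers; the level of confidence is not stated there. Counts were not used. Depth was inferred from the spacing of the interval bounds of low genes, where 870 of 931 genes gave the same unit to within 1%. The value of 1 read was then a median over fewer of these genes, 73 (Arkadia siRNA), 78 (ESRP2 siRNA) and 43 (control siRNA). On a 1 kb transcript 1 read was worth 0.111 FPKM (Arkadia siRNA), 0.0810 FPKM (ESRP2 siRNA) and 0.0838 FPKM (control siRNA). Read numbers are therefore estimates and cover counting error only.

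The ratio of deposited FPKM + 1 between libraries was taken as log2, which understates the changes of low genes. Genes with a mean of at least 1 FPKM, status OK and at least 300 nt in their longest isoform were compared (11870), and 1.5-fold was the size used. With 1 library per group there are no tests and no p-values, and intervals that overlap or do not are the authors'. Isoform shares are fractions of the summed FPKM of a gene. GC content was that of the GENCODE 29 transcript with the same RefSeq accession (22031 genes) or the same symbol (626 genes), and 99.1% of the genes compared had a value. For some accessions that annotation holds a transcript of another length (for BMPR1A 11255 nt against 3616 nt in the deposited table). Promoter windows are those of RefSeq on GRCh38.p14, where all 10 receptors matched by symbol; hg19 positions are the deposited ones, counted from 1. The log2 ratio and the decile subtraction were checked on simulated data, with changes larger than 1.5-fold. The formula of the usage change was checked on fixed shares. The other steps were not checked on simulated data. The computations used Python 3.11.15, numpy 2.4.6, pandas 2.3.3 and matplotlib 3.10.9.

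All 10 receptors are named, isoforms at least where their share reached 10% in any library, and of each list up to 3 members with the largest ratio past 1.5-fold. RNF111 and ESRP2 are named as checks of the labels; isoforms and genes outside this rule were named after their values were seen. The receptors, the lists and the subtraction of GC medians were chosen with earlier results of these data known. Alternatives were a pseudocount of 0.1, linear ratios, other scalings, GC and length subtraction, a size of 2-fold, intervals, and other isoform thresholds.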

Additional observations from a re-analysis of the deposited data

How the results depend on the processing

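No paired analysis was possible because each group has 1 library, and for the same reason no replicate could be left out. Over the receptors, 194 of 210 recomputed log2 ratios moved by less than the spread implied by the authors' intervals (1 SD taken as the width divided by 4), and 13 moved by more. The other 3, past 1.5-fold before, changed sign: the GC-subtracted ratios of Arkadia over ESRP2 siRNA for BMPR2 (0.11), BMPR1A (0.070) and BMPR1B (0.23). Ratios under 1.5-fold before that changed sign are counted among the 194 and the 13. With GC subtraction these included ESRP2 over control siRNA for ACVR2A (0.22 to -0.38), BMPR2 (0.51 to -0.09), BMPR1A (0.22 to -0.31) and BMPR1B (0.28 to -0.32). The cause was not tested. For Arkadia over control siRNA the count of receptors that rose, 0, became 1 with a pseudocount of 0.1, linear ratios, median-of-ratios scaling, GC subtraction or length subtraction. The count that fell, 1, became 3 with a pseudocount of 0.1, 4 with linear ratios, and 0 with median-of-ratios scaling, GC subtraction, length subtraction, a 2-fold size or intervals apart. For ESRP2 over control siRNA the count that rose, 0, became 1 with a pseudocount of 0.1 or linear ratios, and the count that fell, 0, became 2 with GC subtraction and 1 with length subtraction. For Arkadia over ESRP2 siRNA the count of higher receptors, 1, became 3 with GC subtraction, 2 with length subtraction and 0 at 2-fold or by intervals. The count of lower receptors, 2, became 0 with GC subtraction, 1 with length subtraction and 0 at 2-fold or by intervals. At a usage change of 0.15 in place of 0.25, 2 receptors passed for Arkadia over control siRNA in place of 1, and 1 for Arkadia over ESRP2 siRNA in place of 0. Over the pathway lists with Arkadia siRNA against control siRNA, the 6 higher genes became 11 with a pseudocount of 0.1 or linear ratios. They became 2 at 2-fold or by intervals. The 9 lower genes became 3 at 2-fold and 1 by intervals. That 1 gene was RNF111, the target of the Arkadia siRNA, which was also among the 3. With ESRP2 siRNA against control siRNA, the 8 higher genes became 4 with median-of-ratios or upper-quartile scaling, 5 with GC or length subtraction, 2 at 2-fold and 0 by intervals, and the 12 lower genes became 3 at 2-fold and 1 by intervals. Between Arkadia and ESRP2 siRNA, the 14 higher genes became 8 with GC subtraction, 9 at 2-fold and 4 by intervals, and the 12 lower genes became 6 at 2-fold and 2 by intervals. RNF111 was again among the lower genes left by intervals. Shares of all genes were taken only with FPKM + 1, linear ratios, intervals alone and a usage change of 0.25. Counts under the other settings therefore have no share of all genes to be read against. Median-of-ratios scaling set the median log2 ratio of all genes to 0.01 for ESRP2 over control siRNA (0.12 as deposited) and to 0.00 for Arkadia over ESRP2 siRNA (-0.14 as deposited). The Arkadia siRNA library was the shallowest, and about 12.5 reads stand behind BMPR1B there.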

Other observations

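Most ligands of the receptors were below 1 FPKM on average, and 9 of 31 were compared. With Arkadia siRNA 1 rose and 1 fell against control siRNA, with ESRP2 siRNA 0 rose and 3 fell, and 3 were higher and 0 lower with Arkadia than with ESRP2 siRNA. BMP2, a ligand of BMPR1A, BMPR1B and BMPR2, had 3.97 FPKM with Arkadia siRNA (1.89 to 6.05) and 0.632 FPKM with ESRP2 siRNA (0.240 to 1.01), against 0.760 FPKM with control siRNA (0.320 to 1.23). It rose with Arkadia siRNA, with a log2 ratio of 1.497 to control siRNA, and the intervals of these libraries did not overlap. AMH, the anti-Mullerian hormone, had 6.44 FPKM with Arkadia siRNA and 2.05 FPKM with ESRP2 siRNA, against 5.06 FPKM with control siRNA. BMP6 had 4.56 FPKM with Arkadia siRNA and 2.18 FPKM with ESRP2 siRNA, against 4.61 FPKM with control siRNA, and its intervals reached 0 in each library. With GC subtraction the fall of AMH with ESRP2 siRNA (-0.50) and the higher AMH and BMP6 with Arkadia than with ESRP2 siRNA (0.48 and 0.55) no longer passed 1.5-fold.

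Among the ligand traps and latency proteins 6 of 12 were compared. With Arkadia siRNA 1 rose and 0 fell against control siRNA, with ESRP2 siRNA 1 rose and 2 fell, and 3 were higher and 0 lower with Arkadia than with ESRP2 siRNA. NOG, which encodes the BMP antagonist noggin, had 2.49 FPKM with Arkadia siRNA (1.06 to 3.90) and 1.94 FPKM with ESRP2 siRNA (0.843 to 3.06), against 0.594 FPKM with control siRNA (0.222 to 0.976). It rose in both, and the intervals of the Arkadia and control siRNA libraries did not overlap. LTBP3, a latent TGF-beta binding protein, had 7.80 FPKM with Arkadia siRNA and 2.74 FPKM with ESRP2 siRNA, against 6.15 FPKM with control siRNA. Its ratios past 1.5-fold were lost with GC subtraction (-0.44 for ESRP2 over control siRNA and 0.43 for Arkadia over ESRP2 siRNA). Of 21 target genes 17 were compared. With Arkadia siRNA 1 rose and 2 fell against control siRNA, with ESRP2 siRNA 2 rose and 3 fell, and 4 were higher and 3 lower with Arkadia than with ESRP2 siRNA. JUNB, an early TGF-beta target, had 3.81 FPKM with Arkadia siRNA and 1.84 FPKM with ESRP2 siRNA (0.785 to 2.91), against 6.37 FPKM with control siRNA (3.003 to 9.75). It fell in both, and the intervals of the ESRP2 and control siRNA libraries did not overlap. Its log2 ratio for Arkadia over ESRP2 siRNA was 0.76, and -0.044 with GC subtraction. The target list also holds SMAD6 and SKIL, given above.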
